A study of Mus musculus with 3 samples.

Results

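Blood classical monocytes were taken from the blood library of mice 3 days after burn/tenotomy, and 227 of the 2184 blood cells that passed the filter on cells belonged to them (10.4%, 95% Clopper-Pearson interval 9.14 to 11.8). The counts are of unique molecular identifiers (UMIs), tags that each stand for 1 captured RNA molecule, and a cell passed the filter if it had 200 detected genes or more and no more than 20% of its UMIs from mitochondrial genes. Members were chosen by the counts of a few genes in these same cells. It was a member if it held at least 1 UMI of *Csf1r*, at least 3 of *Ccr2*, *Ly6c2*, and *Ms4a4c* together, at most 1 of *Ace*, *Treml4*, and *Eno3* together, at most 1 of *Cd3d*, *Cd3e*, and *Cd79a* together, and less than 5% of its UMIs in *S100a8* and *S100a9*. The whole series held 9725 cells before the filter, of which 2241 came from blood.

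Classical monocytes are the short-lived Ly6C-high monocytes that form in the bone marrow, leave it through the chemokine receptor CCR2, and circulate before they either enter inflamed tissue or turn into nonclassical monocytes that patrol the vessel wall. In injured tissue they give rise to macrophages and to some dendritic cells. *Csf1r* encodes the receptor for the growth factor CSF1, *Ly6c2* the surface protein by which the cells are sorted, and *Ms4a4c* a membrane protein that interferon also induces.

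The mice were male C57BL/6J animals aged 10 weeks, all with the same injury, a dorsal burn together with transection of the Achilles tendon, and no uninjured library is part of the series. Single-cell RNA sequencing (scRNA-Seq) was run on 1 library per tissue, for which blood, marrow, and the tendon injury site were collected. Blood was drawn from the heart and the mononucleated cells of a Ficoll gradient were kept, marrow was washed out of the femurs, both were freed of red cells, and the tendon injury site alone was digested with collagenase and dispase. The cells were unsorted, and the sources used here do not say how many mice went into a library. With 1 library for each tissue no test was possible, and tissue, preparation, and library cannot be told apart. The intervals below cover counting error only, and levels are UMIs summed over the cells of a group per 1000000 UMIs (CPM).

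The members held 4409649 UMIs in total, with a median of 18908 per cell (range 3692 to 62637) and a median of 3611 detected genes. The same rule gave 337 cells in bone marrow with a median of 27201 UMIs and 1670 cells at the tendon injury site with a median of 12205 UMIs. Nonclassical blood monocytes, taken by the same rule with at least 3 UMIs of *Ace*, *Treml4*, and *Eno3* and no condition on *Ccr2*, *Ly6c2*, and *Ms4a4c*, were 157 cells with a median of 8470 UMIs. The library totals were 22542581 UMIs for blood, 49580625 for bone marrow, and 90621052 for the tendon injury site. Cell barcodes shared between libraries were 6 for blood and tendon, 2 for bone marrow and blood, and 1 for bone marrow and tendon, and 0 members carried one.

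The values that chose the members are given here as a description. *Ccr2* stood at 1165 CPM and was found in 226 members. *Ly6c2* stood at 1063 CPM in 212 members, *Ms4a4c* at 531 CPM in 210, and *Csf1r* at 294 CPM in all 227. *Ly6c1*, the near-identical neighbor of *Ly6c2* on chromosome 15, held 1 UMI, and how reads that match both genes were divided is not known, so the *Ly6c2* level is uncertain. Just inside the limits lay 17 members with 1 UMI of *Csf1r* and 49 with 1 UMI of *Ace*, *Treml4*, and *Eno3*, and just outside lay 25 cells with 2 of the latter that met every other condition. A further 114 cells met every other condition but held 0 UMIs of *Csf1r*. Of these, 84 held *Nkg7* and 88 held *Klrd1*, both genes of natural killer cells, and their median count of *Lyz2*, the lysozyme of myeloid cells, was 0 UMIs against 465 in the members.

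The label held against genes that the rule did not use in nearly all members. *F13a1*, which encodes a coagulation factor subunit and is a classical monocyte marker, stood at 655 CPM in the members (95% interval 631 to 679) and at 47.7 CPM in the rest of blood. After thinning each cell to 3000 UMIs it was found in 76.7% of members, in 0.292% of B cells, in 0 of 714 T cells, and in 1.31% of neutrophils. These are shares of cells with a UMI, not of cells that express the gene, and the part of RNA from outside the cells was not tested. Without thinning these shares were 93.8%, 0.273%, 0.138%, and 3.11%, at median depths of 18908, 5086, 8879, and 8637 UMIs. *Vcan*, a matrix proteoglycan, stood at 336 CPM against 30.5 CPM in the rest of blood, and *Chil3*, a chitinase-like secreted protein, at 2678 against 343 CPM. Apart from ribosomal protein and mitochondrial genes, the largest numbers of UMIs after *Gm42418* went to *Lyz2* at 24956 CPM, to *Tmsb4x* at 18136 CPM, and to *Actb* at 8883 CPM, the latter pair being genes of the actin cytoskeleton. *Plac8* (3810 CPM), *Ifitm3* (4006 CPM), *S100a6* (3976 CPM), and *S100a4* (3111 CPM) were also among the 20 genes with the most UMIs. Markers of other cells summed to 2.49 CPM for 9 T cell genes and 10.7 CPM for 7 B cell genes, kinds of cell that the rule had limited, and to 0.227 CPM for 12 fibroblast and tendon genes, of which 11 were at 0. They summed to 4339 CPM for 15 neutrophil genes, led by *S100a8*, to 205 CPM for 11 dendritic cell genes, led by *Bst2*, to 72.8 CPM for 11 platelet genes, led by *Pf4*, and to 52.8 CPM for 10 natural killer cell genes, led by *Ccl5*. *Gm42418* and *AY036118*, which overlap ribosomal RNA, took 6.25% of the members' UMIs, 1.77% in bone marrow, 6.99% at the tendon injury site, and 9.68% in nonclassical monocytes, and their part in the differences below was not tested.

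In 13 members the label was not borne out. These cells held between 40 and 758 UMIs of *C1qa*, *C1qb*, and *C1qc*, the complement C1q chains made by tissue macrophages, while the next highest member held 3 and 202 members held 0. *Ly6c2* and *Ms4a4c* were both at 0 in 11 of the 13, against 2 of the other 214 members, so that most of them passed through *Ccr2* alone. Their median depth was 30207 UMIs. *Plac8* stood at 186 CPM in them and at 4202 CPM in the other members, and *Chil3* at 205 and 2945 CPM. *Lyz2*, shared by monocytes and macrophages, was alike at 25715 and 24875 CPM. Because the 13 were singled out after their values had been seen, these differences carry no test.

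The C1q-positive members differed among themselves, with limits chosen after their values had been seen. *Retnla*, a secreted protein of alternatively activated macrophages, had 3081 of its 3082 UMIs in them. At least 10 were held by 6 of the 13, with up to 1507 in a cell. *Pf4*, a chemokine best known from platelets and also made by some tissue macrophages, had 308 UMIs in them against 3 in the other 214 members, and 5 of the 13 held at least 10. Both at once were held by 0 cells. *Cd5l*, a scavenger protein of resident macrophages, had 164 UMIs in 6 of the 13 cells against 0 in the other members. *Timd4* had 41 in 3 cells, of which 1 held 32, against 0. *Gata6*, a transcription factor of large peritoneal macrophages, had 8 in 5 cells against 0. *Fn1* (fibronectin) stood at 5967 against 863 CPM, *Cd36* at 275 against 0.754 CPM, and the antigen-presenting gene *H2-Ab1* at 1334 against 180 CPM. Only 7 of the 13 held *H2-Ab1*, with a median of 1 UMI over the 13 and up to 219 in a cell. In the whole blood library 46 cells held at least 10 UMIs of C1q, and where in the body they came from was not tested. The rule took in 1 such cell in bone marrow, 3 of the 157 nonclassical monocytes, and 870 of the 1670 tendon cells, so the comparisons below are also given without them.

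**Figure D1:**
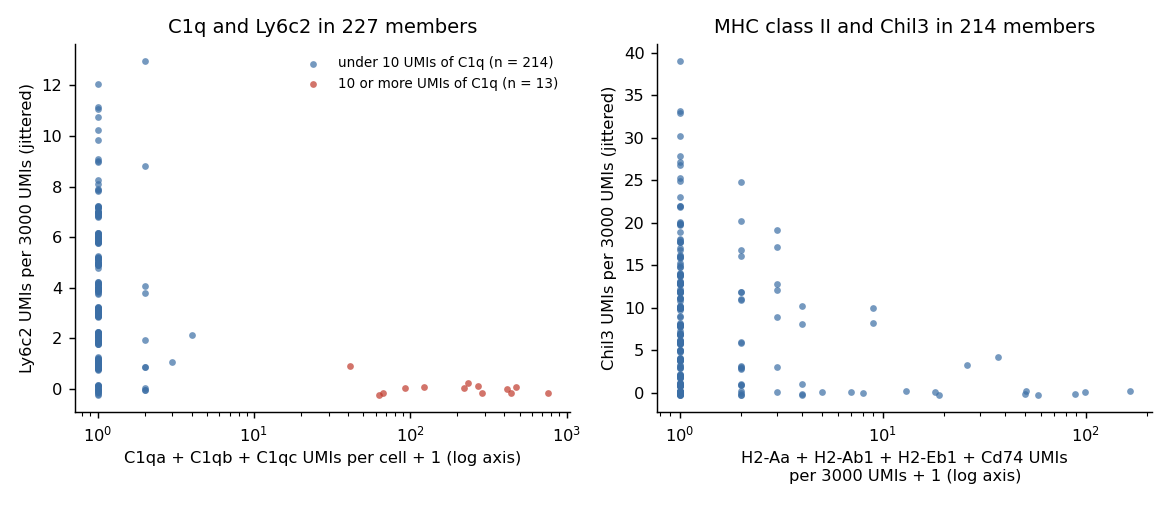
Left, *Ly6c2* UMIs after thinning to 3000 UMIs (vertical axis) against C1q UMIs per cell plus 1 (log axis) for each of 227 members, with the 13 cells at 10 or more C1q UMIs in red, which begin at 40 UMIs and lie at the bottom of the *Ly6c2* axis. Right, thinned *Chil3* UMIs against the thinned sum of 4 MHC class II genes plus 1 (log axis) for the 214 other members, with points moved slightly up or down so that they can be told apart, in which *Chil3* is low in most of the cells at the right.

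The other 214 members varied along 2 lines. The genes with the largest variance relative to their mean included *S100a8* and *S100a9*, the antigen-presenting genes *Cd74*, *H2-Eb1*, *H2-Ab1*, and *H2-Aa*, the lectin *Cd209a*, the acute-phase gene *Saa3*, and *Chil3*. The ranges used below were chosen after these values had been seen, and the counts in each cell were first thinned to 3000 UMIs. Depth hardly differed along the antigen-presenting range, with medians of 18960, 18299, and 17481 UMIs.

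Major histocompatibility complex (MHC) class II molecules present peptides to helper T cells, and *Cd74* encodes the chain that guides them through the cell. The sum of *H2-Aa*, *H2-Ab1*, *H2-Eb1*, and *Cd74* was 0 in 162 members, 1 to 4 UMIs in 35, and 5 to 158 UMIs in 17. *Cd209a*, a lectin of monocytes that become dendritic cells, stood at 0 CPM in the first range, 0 in the second, and 484 CPM in the third, where it came from few cells, since 1.87% of the 214 held it (1.40% after thinning). *Flt3*, the dendritic cell growth factor receptor, stood at 6.22, 11.2, and 36.7 CPM. Classical genes that the rule did not use did not move together, with *Chil3* at 3199, 2947, and 354 CPM and *Plac8* at 4155, 4529, and 3990 CPM. The rule used the sum of *Ly6c2*, *Ms4a4c*, and *Ccr2*, so a cell low in 1 of them needed the others. Their values are therefore a description. *Ly6c2* stood at 1284, 982, and 484 CPM, *Ms4a4c* at 568, 620, and 691 CPM, and *Ccr2* at 1191, 1455, and 1028 CPM. The secreted defense genes *Saa3* (531, 150, and 16.7 CPM), *Lcn2* (335, 199, and 3.34 CPM), and *Hp* (1538, 1447, and 394 CPM) were also lowest in the 17 cells with the most antigen-presenting RNA. *Napsa*, an aspartic protease, stood at 673, 685, and 838 CPM across the same ranges. *Klrd1*, a receptor of natural killer cells and of some monocyte-derived dendritic cells, stood at 1.97, 0, and 96.8 CPM and *Cd7*, a surface protein of lymphoid cells, at 2.95, 0, and 190 CPM, and the part of other cells' RNA in this range was not tested.

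The promoters of the class II genes are shown because these genes were among the most variable in the members. MHC class II promoters are known to carry an X2 box, which resembles the cyclic AMP response element TGACGTCA, and a Y box with the letters ATTGG. The 250 bases before the start of each gene are printed 5′ to 3′ on the gene's own strand, from RefSeq on GRCm38.p6. The letters TGACGTCA, the shorter TGACG that lies within them, and ATTGG were searched on both strands and are in capitals.
H2-Aa: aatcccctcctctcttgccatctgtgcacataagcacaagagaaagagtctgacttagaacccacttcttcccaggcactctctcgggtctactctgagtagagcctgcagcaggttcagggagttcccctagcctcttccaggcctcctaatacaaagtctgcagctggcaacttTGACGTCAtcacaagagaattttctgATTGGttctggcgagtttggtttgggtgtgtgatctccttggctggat
H2-Eb1: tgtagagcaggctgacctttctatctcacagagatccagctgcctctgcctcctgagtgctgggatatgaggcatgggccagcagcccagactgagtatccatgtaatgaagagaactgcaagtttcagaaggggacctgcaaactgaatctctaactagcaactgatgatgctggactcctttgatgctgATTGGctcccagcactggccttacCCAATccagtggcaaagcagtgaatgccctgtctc
The *H2-Aa* window (chr17:34287824-34288073, minus strand) held TGACGTCA 74 to 67 bases and ATTGG 48 to 44 bases before the start. The *H2-Eb1* window (chr17:34305617-34305866, plus strand) held ATTGG 59 to 55 bases before the start and once more on the other strand at 35 to 31, and no TGACG. Of 32851 windows of the same length before gene starts, 1.55% held TGACGTCA, 17.8% TGACG, and 33.8% ATTGG, and a match is a description of letters only.

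The second line ran through the alarmins *S100a8* and *S100a9*, which the rule had limited. Their thinned sum was 0 in 98 members, 1 to 9 in 86, and 10 to 135 in 30. *Wfdc21*, a small secreted protein of myeloid cells, stood at 244, 652, and 1759 CPM in these ranges, *Lcn2*, which binds iron carriers of bacteria, at 79.0, 286, and 923 CPM, and the collagenase *Mmp8* at 200, 251, and 618 CPM. *Chil3* stood at 2454, 3122, and 3945 CPM, and *Csf3r*, the receptor for the neutrophil growth factor G-CSF, at 59, 104, and 149 CPM. These genes are also known from neutrophils. Of other neutrophil genes, *Retnlg* stood at 6.12, 18.4, and 162 CPM, the chemokine receptor *Cxcr2* at 0, 5.70, and 49.7 CPM, and the gelatinase *Mmp9* at 0, 6.33, and 28.2 CPM, and these were highest in the 30 cells. *Ngp*, a granule protein of neutrophil precursors, stood at 1.11, 0.633, and 1.66 CPM, and the neutrophil surface marker *Ly6g* at 0, 1.27, and 0 CPM. The part of neutrophil RNA in this range was not tested. *Ly6c2* was level at 1108, 1249, and 1188 CPM, and *H2-Ab1* stood at 243, 176, and 0 CPM. Because the rule cut this range off at 5% of UMIs, these values are a description of the cells that it kept. A set of 12 interferon-stimulated genes had a median sum of 1 thinned UMI, a highest value of 15, and 12 cells at 5 or more. *Ifi27l2a*, a gene of the longer interferon list, was among the 25 most variable genes, with up to 25 thinned UMIs in a cell.

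Toward the nonclassical monocytes the cells differed by steps. Blood cells with under 10 UMIs of C1q that met the other conditions were divided by their UMIs of *Ace*, *Treml4*, and *Eno3* into 169 cells at 0, 45 at 1, 24 at 2, 35 at 3 to 9, and 36 at 10 or more, the first pair of groups being members. The rule used these genes, so the values are a description. *Ly6c2* stood at 1188, 1136, 1003, 509, and 157 CPM in this order, and *F13a1* at 722, 665, 572, 338, and 83.3 CPM. Higher at each step were *Nr4a1*, the nuclear receptor on which nonclassical monocytes depend, at 59.9, 111, 124, 182, and 401 CPM, and *Spn* (CD43) at 19.7, 34.8, 49.7, 146, and 324 CPM. *Cx3cr1*, the fractalkine receptor, stood at 98.4, 155, 128, 233, and 331 CPM. *Cd300e* behaved otherwise, with 1 UMI in the cells at 0, 0 UMIs in those at 1 and 2, 42.7 CPM in those at 3 to 9, and 186 CPM in the last group. *Plac8* changed little at 4022, 4826, 5654, 5648, and 4828 CPM. The median depth of the groups was 18396, 19374, 20354, 17325, and 13926 UMIs.

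**Figure D2:**
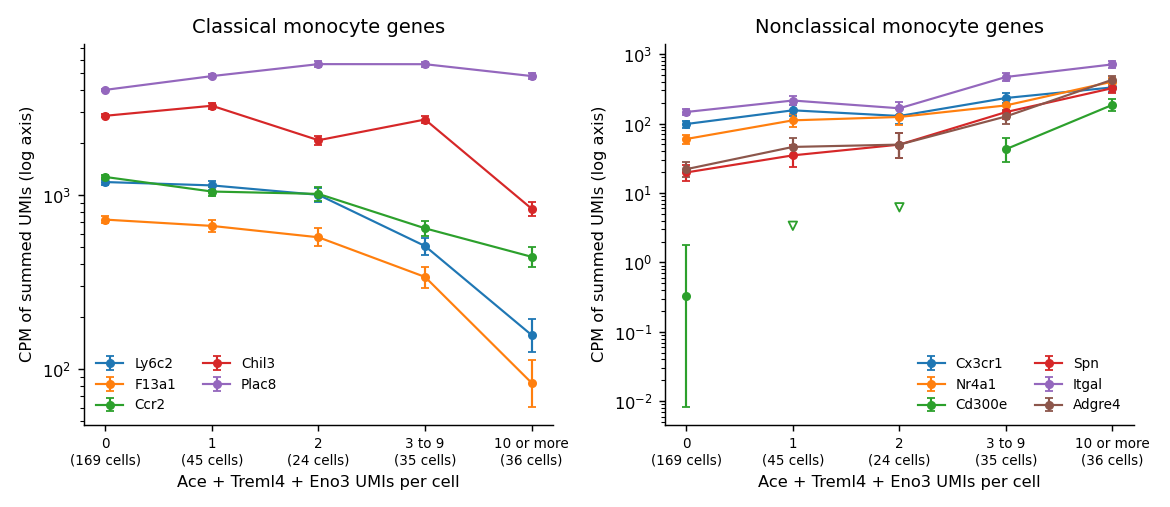
CPM of summed UMIs (log axis) in blood cells with at least 3 UMIs of *Ccr2*, *Ly6c2*, and *Ms4a4c* and under 10 of C1q, by their UMIs of *Ace*, *Treml4*, and *Eno3*; bars are exact Poisson 95% intervals, and open triangles mark 0 UMIs at the floor of 3 counts. *Ly6c2* goes from 1188 to 157 CPM and *Nr4a1* from 59.9 to 401 CPM, while *Cd300e* has 1 UMI at 0, none at 1 and 2, and 42.7 and 186 CPM in the last groups.

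Against the 157 nonclassical monocytes, 472 of 9039 genes with at least 20 UMIs were higher in the members (5.22%) and 648 lower (7.17%), counting a gene as past 2-fold when its log2 ratio was 1 or more in size and its 95% interval lay off 0. Without the C1q-positive cells 378 of 8809 genes were higher (4.29%) and 733 lower (8.32%). The rule drew both groups apart on these same cells, so nothing is read from the counts, and the values describe what each group carried. The values against nonclassical monocytes in the next paragraph are without the C1q-positive cells.

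Higher in the members was the chemokine receptor *Ccr1* (116 against 18.3 CPM, log2 ratio 2.67, 95% interval 2.16 to 3.22). *Fn1* had a log2 ratio of 2.27, *Vcan* of 1.73, *F13a1* of 2.36, *F5*, another coagulation factor, of 2.23, and *Chil3* of 1.24. Lower were *Bcl2*, which protects cells from apoptosis (3.27 against 81.5 CPM, log2 ratio -4.64), and 3 genes of the related Bcl2a1 family, whose near-identical copies make single values uncertain. *Cd36*, the receptor for oxidized lipids, stood at 0.754 against 139 CPM, and *S1pr5*, a sphingosine receptor used for leaving the marrow, at 3.02 against 120 CPM. *Nr4a1* (71.4 against 382 CPM) had a log2 ratio of -2.42, *Klf4* of -1.82, and *Pou2f2* of -1.77, all 3 being transcription factors tied to the nonclassical fate. Of 18 nonclassical markers that the rule did not use, 16 were lower by 2-fold or more and 0 higher, with a median log2 ratio of -2.90 against -0.13 over all genes. Of 22 classical markers 12 were higher and 0 lower, with a median of 1.08, and *Plac8* was among those that did not differ by 2-fold (log2 ratio 0.10).

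The comparison of blood with bone marrow asks how circulating monocytes differ from those at the site where they form. With all cells of the rule, 705 of 10484 genes were higher in blood (6.72%) and 1685 lower (16.1%), and without C1q-positive cells 641 of 10389 were higher (6.17%) and 1817 lower (17.5%). The marrow cells were mostly dividing or immature, however. A sum of *Mki67*, *Top2a*, *Birc5*, and *Ccnb2*, genes of cell division, above 1 UMI was found in 248 of 337 marrow cells and in 21 of 227 blood members, and the marrow cells with it were deeper, with a median of 35013 UMIs against 16937 in the others. *Top2a* stood at 582 CPM in bone marrow and 30.4 CPM in blood, where 129 of its 134 UMIs lay in 4 of the C1q-positive cells and the other 214 members stood at 1.26 CPM. *Elane*, the neutrophil elastase of early myeloid cells, stood at 1264 and 6.12 CPM. All 26 cell cycle genes and 8 of 11 early granule genes were lower in blood by 2-fold or more.

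When cycling cells were left out, 227 of 8699 genes were higher in blood (2.61%) and 112 lower (1.29%). When C1q-positive cells were left out as well, 88 marrow and 196 blood cells were compared, and 158 of 8567 genes were higher in blood (1.84%) and 118 lower (1.38%). The early granule genes then differed little, with *Elane* at 5.52 CPM in blood and 7.89 CPM in bone marrow and *Prtn3* at 141 and 210 CPM. Of the genes that the rule used in both libraries, which are given as a description, *Csf1r* had a log2 ratio of 0.15, *Ms4a4c* of -0.04, *Ly6c2* of -0.37, and *Ccr2* of -0.47. Of genes that it did not use, *Lyz2* had a log2 ratio of 0.04, *Plac8* of 0.15, and *F13a1* of -0.51. The median log2 ratio was 0.02 over 22 classical markers and -0.08 over all genes.

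**Figure D3:**
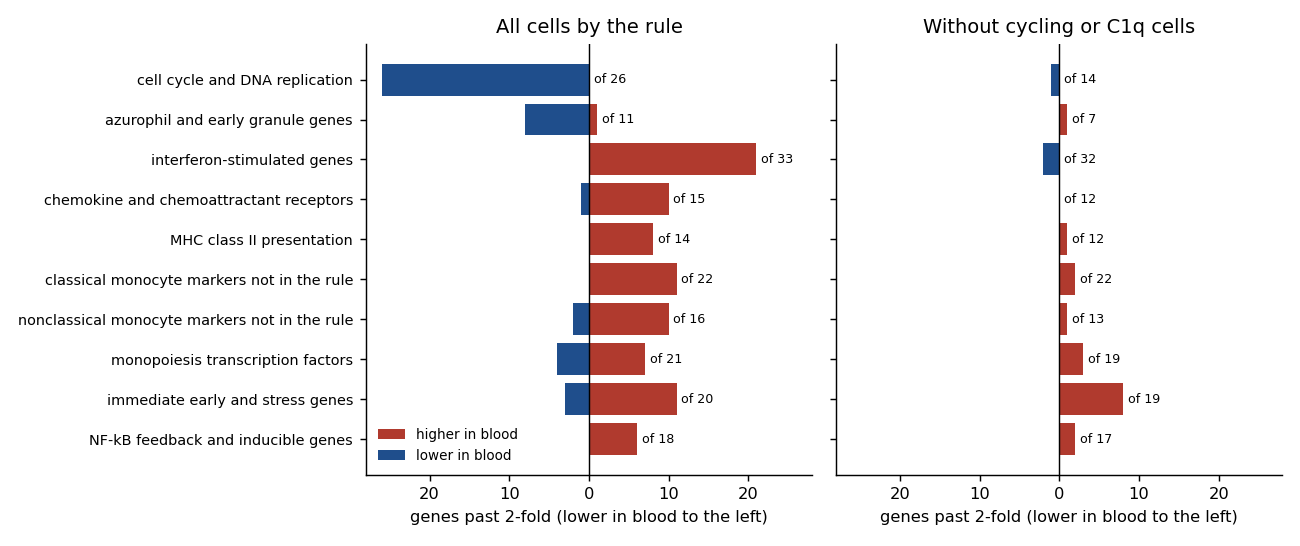
Genes past 2-fold between blood and bone marrow in 10 gene lists, with bars to the right for genes higher in blood, bars to the left for genes lower in blood, and the number of genes compared beside each list. With all cells (left) 26 of 26 cell cycle genes were lower and 21 of 33 interferon-stimulated genes higher in blood. Without cycling or C1q-positive cells (right) 8 of 19 immediate early and stress genes were higher and 0 of 32 interferon-stimulated genes were. Over all genes 6.72% were higher and 16.1% lower on the left, and 1.84% and 1.38% on the right.

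The interferon-stimulated genes were higher in blood in the first of these counts and not in the last. They encode antiviral effectors and the factors that induce them. With all cells 21 of 33 were higher in blood and 0 lower (median log2 ratio 1.29), among them *Ms4a4c*, which the rule used, *Isg15* (84.4 CPM in blood and 26.1 CPM in bone marrow) and *Irf7* (81.4 and 26.5 CPM). Without cycling or C1q-positive cells 0 of 32 were higher and 2 lower (median -0.17). *Isg15* then stood at 85.6 CPM in blood and 122 CPM in bone marrow, and *Irf7* at 90.6 and 85.5 CPM. The lower pair was *Ifit3* (log2 ratio -1.04) and *Phf11d* (log2 ratio -1.25). The chemokine receptors, among which the rule used *Ccr2*, went from 10 of 15 higher to 0 of 12 (*Ccr2* was past 2-fold in neither count), and the MHC class II genes from 8 of 14 to 1 of 12. Over all genes the share higher in blood went from 6.72% to 1.84%. The last counts of these 3 lists lie near that share, and nothing is read from them. *H2-Ab1*, at 292 CPM in blood and 20.4 CPM in bone marrow with all cells, stood at 198 and 116 CPM without cycling or C1q-positive cells (log2 ratio 0.77). The blood level came from few members, since 700 of the 715 *H2-Ab1* UMIs in the 214 members without C1q lay in the 17 cells with the most class II RNA.

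Immediate early genes are switched on within minutes of a stimulus, and without cycling or C1q-positive cells theirs had the largest share of genes higher in blood among the pathway lists; with all cells other lists had larger shares. Of 19 compared without these cells, 8 were higher in blood and 0 lower, with a median log2 ratio of 0.60. Over all genes 1.84% were higher and 1.38% lower, with a median of -0.08. *Fos*, a subunit of the transcription factor AP-1, stood at 342 CPM in blood and 63.8 CPM in bone marrow (log2 ratio 2.42, 95% interval 2.12 to 2.73). *Dusp1*, a phosphatase that ends MAP kinase signaling, stood at 111 and 15.1 CPM (log2 ratio 2.88, 95% interval 2.27 to 3.55). The AP-1 member *Jund* stood at 311 and 80.9 CPM (log2 ratio 1.94), and *Klf2*, a factor of quiescence and of trafficking receptors, at 641 and 293 CPM (log2 ratio 1.13). *Junb* had a log2 ratio of 1.08, *Nr4a1* of 1.25, and *Fosb* of 1.56. *Egr1*, listed at 0 in bone marrow, had a log2 ratio of 2.25 with bone marrow set to 3 counts. Only the blood passed through a Ficoll gradient, and how the handling of either tissue bears on these genes was not tested.

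The promoters of *Dusp1* and *Fos* are shown because these genes had the largest ratios of the list among those with 100 or more UMIs, and because both are known targets of the factor CREB, which binds TGACGTCA and the shorter TGACG. The capitals mark those letters on either strand in the 250 bases before the start, from the same RefSeq source.
Dusp1: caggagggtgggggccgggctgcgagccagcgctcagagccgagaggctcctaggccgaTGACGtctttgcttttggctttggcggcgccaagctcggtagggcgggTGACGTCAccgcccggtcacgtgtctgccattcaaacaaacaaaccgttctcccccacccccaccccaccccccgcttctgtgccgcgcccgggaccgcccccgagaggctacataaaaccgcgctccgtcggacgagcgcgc
Fos: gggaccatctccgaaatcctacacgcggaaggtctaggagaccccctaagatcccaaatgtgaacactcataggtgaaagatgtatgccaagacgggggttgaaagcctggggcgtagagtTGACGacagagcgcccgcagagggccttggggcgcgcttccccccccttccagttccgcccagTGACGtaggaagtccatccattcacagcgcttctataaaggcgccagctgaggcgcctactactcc
The *Dusp1* window (chr17:26508473-26508722, minus strand) held TGACGTCA 143 to 136 bases before the start and a further TGACG at 191 to 187. The *Fos* window (chr12:85473640-85473889, plus strand) held TGACG at 129 to 125 and at 66 to 62 bases before the start, and no TGACGTCA.

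Other genes stayed higher in blood as well. *Cd14*, the coreceptor for lipopolysaccharide, stood at 99.4 CPM in blood and 26.3 CPM in bone marrow without cycling or C1q-positive cells (log2 ratio 1.92, 95% interval 1.44 to 2.43). *Saa3*, an acute-phase protein, stood at 462 and 138 CPM (log2 ratio 1.75), and *Socs3*, which restrains cytokine signaling, at 134 and 48.7 CPM (log2 ratio 1.47). *Ahr*, the aryl hydrocarbon receptor, had a log2 ratio of 1.98 and *Tppp3*, a tubulin-binding protein, of 2.10. *Il1b* was scarce in both, at 22.7 and 1.97 CPM. Among markers of other cells, the neutrophil granule genes *Ngp* (0.829 CPM in blood and 46.1 CPM in bone marrow) and *Camp* (0.552 and 45.4 CPM) and the summed erythroid markers (2.76 and 63.2 CPM, the most abundant being *Hbb-bs*) were higher in the marrow cells, and their part in the result was not tested.

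**Figure D4:**
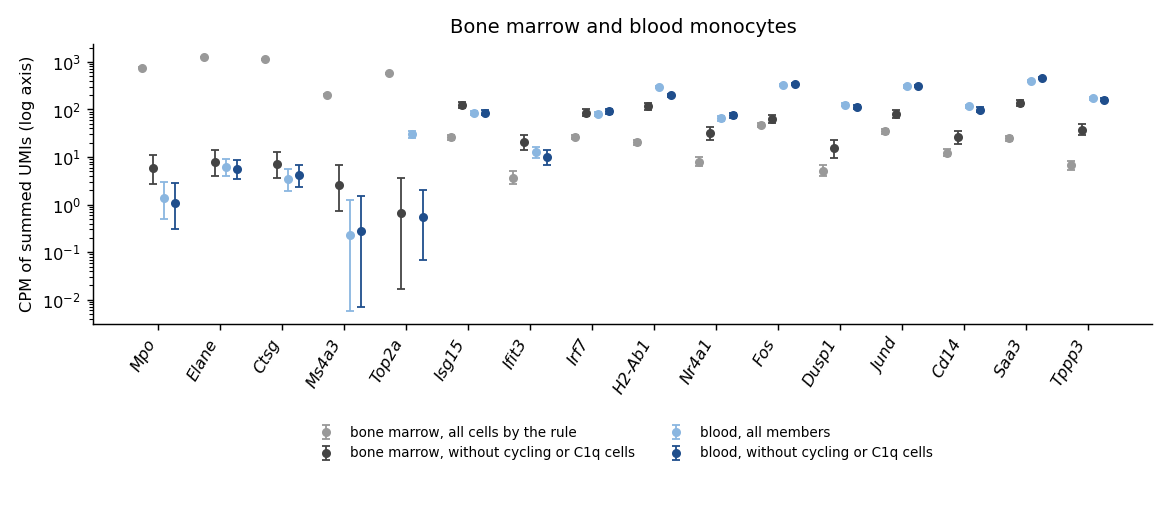
CPM of summed UMIs (log axis) of 16 genes in bone marrow (gray, black) and blood (light and dark blue), for all cells of the rule and without cycling or C1q-positive cells; bars are exact Poisson 95% intervals, and a group at 0 has no point. *Elane* is at 1264 CPM in bone marrow with all cells and at 7.89 CPM once those cells are left out, while *Fos* is at 47.5 and 63.8 CPM there, below 323 and 342 CPM in blood.

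The comparison with the tendon injury site follows the same rule into injured tissue. With all cells, 2484 of 11929 genes were higher at the tendon injury site than in blood (20.8%) and 1253 lower (10.5%). Without C1q-positive cells, which left 800 tendon and 214 blood cells, 1920 of 10628 genes were higher (18.1%) and 1270 lower (11.9%), and the values that follow are from these cells unless others are named. *Csf1r* (log2 ratio 0.17), *Fn1* (0.01), *Vcan* (0.52), *Ccr2* (-0.70), and *F13a1* (-0.71) were not past 2-fold.

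Of the genes that chose or marked the members, *Ly6c2* was lower in the tissue by more than 2-fold, which is given as a description, since the rule used it in both libraries and the tendon cells were shallower (median 11077 UMIs against 18751). It stood at 1176 CPM in blood and 260 CPM at the tendon injury site (log2 ratio -2.18, 95% interval -2.25 to -2.11). *Klf2* stood at 638 and 128 CPM (log2 ratio -2.32). *Nfe2*, a transcription factor best known from megakaryocytes and red cell precursors, stood at 44.0 and 3.50 CPM, and *Padi4*, the enzyme that citrullinates histones, at 32.7 and 3.71 CPM. Of 17 adhesion and homing genes 7 were lower and 5 higher. The lower ones included *Itga4*, *Itgb7*, and *Itgal*, integrins that hold leukocytes to the vessel wall, and *Selplg*, the ligand of selectins, while *Itga5*, *Itga6*, and *Icam1* were higher. Of 34 interferon-stimulated genes 13 were lower and 3 higher (median log2 ratio -0.80 against -0.05 over all genes), where 11.9% of all genes were lower and 18.1% higher. With C1q-positive cells included 7 of 35 were higher and 5 lower (median -0.18). That lies near the shares over all genes with those cells (20.8% higher and 10.5% lower, median 0.08). The lower count thus rested on leaving out those cells, after their values were seen. *Xaf1* stood at 82.4 CPM in blood and 19.0 CPM in the tissue and *Slfn5* at 234 and 91.5 CPM, whereas *Cxcl10*, the chemokine of this list, stood at 2.51 and 55.8 CPM.

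Of 28 cytokines and chemokines 22 were higher at the tendon injury site and 2 lower (18.1% and 11.9% over all genes). The blood members held 2319 CPM of this list, led by the chemokine *Ccl6*, which at 731 CPM in blood and 1436 CPM in the tissue was not past 2-fold (log2 ratio 0.98), and *Ccl9* (log2 ratio 0.68) was not either. *Cxcl2*, a neutrophil attractant, had 0 UMIs in the blood members without C1q and 6212 CPM in the tissue. With blood set to 3 counts its log2 ratio was 13.01, and its 95% interval began at 12.71. *Cxcl1*, at 0 and 467 CPM, had a log2 ratio of 9.28 in the same way, with a 95% interval from 8.98 up. *Il1b* stood at 21.4 CPM in blood and 1830 CPM in the tissue (log2 ratio 6.42, 95% interval 6.11 to 6.75), and *Tnf* at 2.26 and 311 CPM (log2 ratio 7.10). *Ptgs2*, the inducible cyclooxygenase, had 1 UMI in blood (log2 ratio 10.90, 95% interval 8.42 to 16.20). *Acod1*, the itaconate-producing enzyme that the files list as *Irg1*, had 1 UMI in all 227 blood members, 0 in the marrow cells, and 360 UMIs (15.9 CPM) in the 1670 tendon cells.

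Some other lists were mostly higher at the tendon injury site and some were not. Of 20 NF-kB feedback and inducible genes 18 were higher in the tissue and 0 lower (median log2 ratio 2.81). Of 13 hypoxia genes 9 were higher and 0 lower, and of 29 macrophage differentiation genes 25 were higher and 0 lower. Over all genes 18.1% were higher and 11.9% lower. The macrophage list holds *C1qa*, *C1qb*, and *C1qc*, on which both groups had been limited, so the part of these genes in its count is a description. The limit of 20 UMIs over both groups bears on such counts too. In the blood members without C1q, 0 NF-kB genes, 1 hypoxia gene, and 4 macrophage differentiation genes had 0 UMIs. *Hif1a* stood at 88.2 CPM in blood and 311 CPM in the tissue, and *Vegfa*, with 1 UMI in blood, at 85.1 CPM in the tissue. *Thbs1* (thrombospondin) stood at 38.9 and 2008 CPM (log2 ratio 5.69), *Spp1* (osteopontin) at 4.02 and 741 CPM (log2 ratio 7.53), and the mannose receptor *Mrc1* at 3.02 and 308 CPM. Of 16 chemokine and chemoattractant receptors 10 were higher, among them *C3ar1* (2.51 and 136 CPM), and *Cx3cr1* alone was lower (111 and 30.4 CPM), while *Ccr2*, which the rule used, was not past 2-fold. Immediate early genes were higher again, 18 of 23 with 1 lower, with *Fos* at 346 CPM in blood and 770 CPM in the tissue, and the part of enzyme digestion, which the tendon cells alone went through, was not tested. Glycolysis genes, with 4 of 19 higher and 2 lower, lay near the shares over all genes (18.1% higher and 11.9% lower). Of 7 NADPH oxidase genes 0 were higher and 1 lower, and of 18 Toll-like receptor and lipopolysaccharide sensing genes 3 were higher and 5 lower. With C1q-positive cells included, 5 of 19 genes of this last list were higher and 2 lower, near the shares over all genes with those cells (20.8% and 10.5%).

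RNA of other cells stood beside these differences. The 12 fibroblast and tendon markers summed to 778 CPM in the tendon cells and 0.251 CPM in the blood members, with *Sparc* the most abundant, at 189 CPM. *Pf4*, best known from platelets but also one of the macrophage differentiation genes counted above, stood at 1011 and 0.754 CPM. The keratinocyte genes *Krt14* and *Lgals7* stood at 331 and 256 CPM in the tendon cells and at 0 and 0.251 CPM in the blood members. Their part in the result was not tested. With tendon cells limited to at most 2 UMIs of C1q, *Cxcl2* stood at 6303 CPM and *Il1b* at 1918 CPM, and 1611 of 10521 genes were higher (15.3%) and 1380 lower (13.1%).

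**Figure D5:**
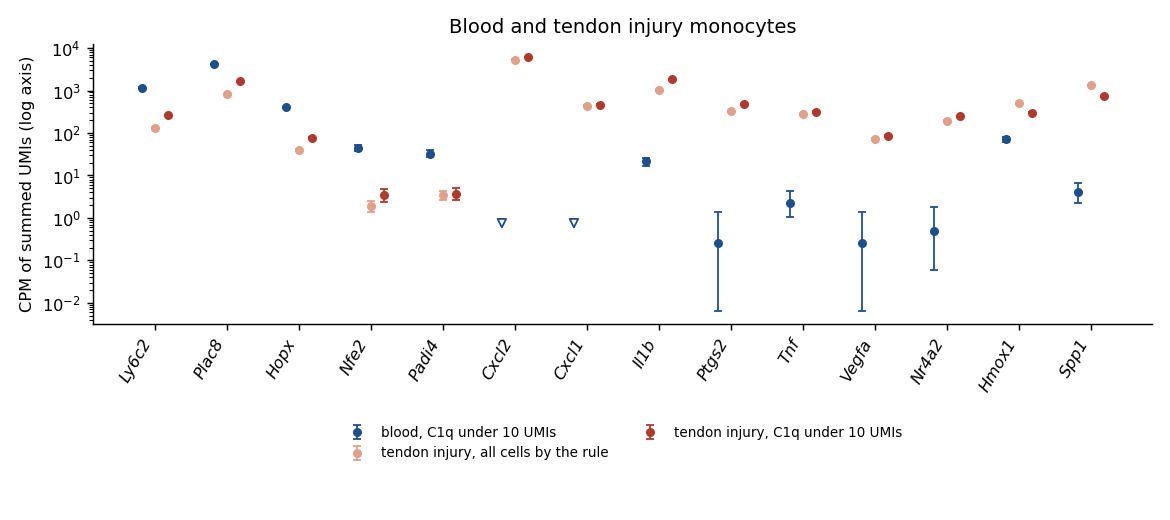
CPM of summed UMIs (log axis) of 14 genes in blood members with under 10 UMIs of C1q (blue) and in tendon cells of the same rule (light red, all; dark red, under 10 UMIs of C1q); bars are exact Poisson 95% intervals and open triangles mark 0 UMIs at the floor of 3 counts. *Ly6c2*, which the rule used, is lower and *Cxcl2*, *Cxcl1*, and *Il1b* are higher at the tendon injury site whether or not C1q-positive cells are included.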

How the data were processed

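The deposited values are raw UMI counts for every gene in every cell, which the authors obtained from 10x 3′ libraries with Cell Ranger (version 5.0.1 in the file headers; mm10 in the submitters' processing notes). The gene models behind the counts were not stated. Chromosomes were looked up in GENCODE M21. The members, gene lists, and rule for named genes were chosen with earlier results of these data known. Named genes are those of the rule, the 20 with the highest CPM, the leading genes of each comparison by log2 ratio, those of highest level or ratio in each list, and the 25 most variable; the C1q, Irg1, and range genes were added after values were seen. Doublets were kept. The automatic threshold of Scrublet in scanpy 1.11.5 marked 32 blood cells and 6 of 4978 tendon cells, so removal of the highest scores was tried instead, which took 0 members and 96 tendon cells of the rule.

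UMIs were summed per group and scaled to CPM, with exact Poisson intervals. The 95% interval of a ratio was computed from an exact binomial interval of each gene's UMIs over both groups, and genes needed at least 20 UMIs over both groups. For a ratio against 0, the group at 0 was set to 3 counts. For values per cell, each cell was thinned to 3000 UMIs. The ratios were tested on simulated data. List genes that the files did not hold under these names, 10 in all, were not analysed here. Python 3.11.15, NumPy 2.4.6, pandas 2.3.3, SciPy 1.17.1, and matplotlib 3.10.9 were used. Some results are not reported here.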

Additional observations from a re-analysis of the deposited data

How the results depend on the processing

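No paired analysis was possible because each tissue had 1 library, and for the same reason no replicate could be left out. Of 83 counts of cells or genes under alternatives, 69 stayed within 1.5 times the reported value. With the rule applied to cells thinned to 3000 UMIs the members were 136. With at least 100 UMIs required, the genes past 2-fold against nonclassical monocytes were 199 higher and 335 lower, 409 were higher in blood than in bone marrow, and 1589 were higher and 819 lower at the tendon injury site than in blood. The genes higher in blood than in bone marrow were 368 with the thinned rule, 462 with the mean of per-cell CPM, and 227 without cycling cells, where 112 were lower, and 158 without cycling or C1q-positive cells, where 118 were lower. The genes higher at the tendon injury site were 1446 with the thinned rule and 1611 without tendon cells above 2 UMIs of C1q. These last leave-outs compare fewer cells; for the others the cause was not tested. Of 5012 log2 ratios of single genes under alternatives, 1243 moved outside their 95% interval without changing sign and 39 changed sign. With the thinned rule 265 moved and 137 did not. The alternatives that leave out C1q-positive cells, alone or with cycling cells, were chosen after seeing the data. For *Retnlg*, *S100a9*, and *Ctsg*, which the limit on *S100a8* and *S100a9* bears on, the ratios that changed sign were -1.02 with the thinned rule and -0.38 with less than 1% of UMIs in *S100a8* and *S100a9* for *Retnlg* and -0.60 with the latter for *S100a9* (against nonclassical monocytes), -0.95, -0.014, -0.34 without cycling cells, and -0.34 without cycling or C1q-positive cells for *Retnlg* (blood against bone marrow), and -1.61 with the thinned rule, -2.82 with less than 1%, and -0.077 with the mean of per-cell CPM for *Ctsg* (tendon against blood). For blood against bone marrow without cycling cells they were 0.37 for *Cxcr4*, -0.37 for *Fcgr1*, -0.036 for *Fn1*, -0.28 for *Fpr2*, -1.15 for *Hpgd*, -0.34 for *Ifi204*, -1.13 for *Ifit3*, -0.024 for *Ifitm6*, -0.51 for *Isg15*, -0.017 for *Itga4*, -0.13 for *Ms4a4c*, and 0.13 for *Spn*. Without C1q-positive cells as well they were -0.61 for *Apoe*, 0.40 for *Cxcr4*, -0.30 for *Fcgr1*, -0.49 for *Fn1*, -0.22 for *Fpr2*, -1.08 for *Hpgd*, -0.30 for *Ifi204*, -1.04 for *Ifit3*, -0.51 for *Isg15*, -0.039 for *Ms4a4c*, and 0.23 for *Spn*. For tendon against blood they were 3.36 for *Cd209a* and -0.88 for *Prg4* with the thinned rule, 0.0055 for *Fn1* and -0.19 for *Ifit3* without C1q-positive cells, and -0.057 for *Ifit3* and -0.95 for *Prg4* without tendon cells above 2 UMIs of C1q. A single UMI of *Csf1r* decides membership in 17 cells, and depth differs between the groups, so shallow monocytes can be missed.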
